A study of Mus musculus with 15 samples.

Results

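The genes described here are those of the cell junctions of an epithelium: the claudins (13 genes), the tight junction scaffolds (4 genes), the tight junction membrane proteins Ocln, Marveld2, Marveld3 and F11r (4 genes), the desmosomal cadherins Dsc2, Dsg2 and Dsg3 (3 genes), the desmosomal plaque genes Dsp, Jup and Pkp1 to Pkp4 (6 genes) and the connexins (10 genes). They were matched by their symbols, which gave 40 genes of 16729 in the expression table. The rule took every claudin, desmocollin, desmoglein, Tjp, plakophilin and Gja, Gjb or Gjc connexin symbol, plus 7 named genes. The connexin Gjd3 is in the table but outside the rule. The rule itself was set with earlier results of these data known. The other 22 genes of the 62 that the same rule finds in the GENCODE M21 annotation were not analysed here. The endothelial claudin Cldn5 was among those 22.

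Epithelial cells are joined by several kinds of contact. Claudins are membrane proteins with several membrane passes that seal the space between cells or make ion-selective pores through it, and occludin, tricellulin (Marveld2) and the adhesion molecule F11r sit beside them, with the zonula occludens scaffolds (Tjp genes) and cingulin (Cgn) linking them to actin. Desmosomes tie the keratin filaments of neighbouring cells together through desmocollins and desmogleins outside the cell and plakophilins, plakoglobin (Jup) and desmoplakin (Dsp) inside it. Connexins form the channels of gap junctions, which pass small molecules between cells, and in the uterine epithelium their set is known to change with hormones and at implantation.

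RNA was sequenced from epithelial organoids of mouse endometrium in 4 groups, 15 samples in all. Control + vehicle (n = 3, called vehicle controls below) and control + A83-01 (n = 4) came from mice of the genotype Smad2flox/flox; Smad3flox/flox, which carry both floxed genes and no Cre. The Smad2/3 cKO samples (n = 4) carried the same floxed alleles and Ltfcre/+, as did those named Smad2/3 cKO + A83-01 (n = 4). Control + vehicle and Smad2/3 cKO both received the vehicle. The vehicle was DMSO, and A83-01 is an inhibitor of the type 1 receptors of TGFβ, activin and Nodal, which signal through SMAD2 and SMAD3. The comparisons ask what the receptor inhibitor or the loss of both SMADs does to the organoids, and whether the inhibitor acts where the SMADs are gone. Ltf-cre is driven by the lactoferrin gene, which is active in the adult uterine epithelium and answers to estrogen, and by the study's methods it was induced with estradiol at weaning. The organoids were grown in Matrigel from isolated uterine epithelium of adult mice with a genetic background of C57BL/6J mixed with 129S5/SvEvBrd, away from the stroma of the uterus. The labels number the samples of a group as replicates and state 4 mice per genotype. The study's methods give 3 to 4 mice per condition. Numbers in the sample descriptions, which may be mouse numbers, recur for replicates 1 to 3 of both control groups, so the treated and untreated controls may come from the same animals. The number of control replicate 1 stands also on Smad2/3 cKO replicate 1, of another genotype, and Smad2/3 cKO replicate 2 and Smad2/3 cKO + A83-01 replicate 1 share a number. The samples with the deletion carry more than 4 different numbers, which does not match 4 mice per genotype if they are mouse numbers.

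The deposited values are normalized estimated counts, which summed to between 20241771 and 24423127 per sample. Pairs of samples within a group correlated between 0.914 and 0.970 over genes on the log2 scale. Whole-gene values of the floxed genes were 1045 to 1335 in the vehicle controls and 821 to 924 after the deletion for Smad2, and 1532 to 1741 and 1169.6 to 1977 for Smad3, and removal of the floxed exons cannot be seen in them. Epcam, a marker of epithelium, lay between 19889 and 28844 in all samples. The 6 keratin and adhesion markers of epithelium summed to 240842 to 309429 in control + vehicle against 121653 to 228701 in Smad2/3 cKO. Stromal markers summed to at most 192 over 6 genes and endothelial markers to at most 27.6 over 2 genes. The 4 leukocyte markers in the table summed to 1261 to 2896, 3402 to 8757, 2116 to 5795 and 4032 to 7969.9 in the order of the groups above, most of it Cd68. Ptprc was at 12.5 to 38.5 in the vehicle controls and 68.5 to 236, 123 to 309 and 119 to 514 in the other groups, without overlap. Csf1r overlapped between the vehicle controls and each other group. Adgre1 was at 351 in Smad2/3 cKO replicate 2 and at most 9.01 in any other sample. In bulk RNA, fewer cells of a type and less RNA per cell cannot be told apart. Genes with transcripts of at least 5000 bases were low against those under 2000 bases in control + A83-01 replicates 1 and 4, with a difference of medians of -0.89 and -0.45 on the log2 scale, and in Smad2/3 cKO + A83-01 replicate 2, with -0.37.

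Most of the calls among the junction genes were connexins. Gjb1 rose with the inhibitor and with the deletion, Gjb2 rose and Gja1, Cldn4 and Pkp3 fell with the deletion, and the tight junction scaffolds and membrane proteins and the desmosomal cadherins had no call. A gene was called when limma's moderated test over all genes, with Benjamini-Hochberg adjustment, gave an adjusted p under 0.01 and the fold change was beyond 1.4 in either direction. Control + A83-01 against control + vehicle called 1 of 34 tested members higher, the connexin Gjb1, against 1.19% of all genes, and 0 lower, against 1.08% of all genes, while 16 of 34 members had an unadjusted p under 0.05, against 22.2% of all genes. Smad2/3 cKO against control + vehicle called 2 of 34 higher, Gjb1 and Gjb2, against 4.08% of all genes, and 3 lower, Gja1, Cldn4 and Pkp3, against 3.3% of all genes. There 19 of 34 members had an unadjusted p under 0.05, against 33.7% of all genes. Over all genes the deletion called 536 higher and 434 lower, and 440 higher and 537 lower with every sample rescaled to the same total. With so few calls these counts do not set the junction genes apart from all genes. The estimates below 0 numbered 28 of 34 in each of these comparisons, with medians of -0.46 and -0.51 on the log2 scale beside -0.02 and 0.00 for all genes. After that rescaling the median of all genes for the inhibitor shifted to -0.12, and 28 of 34 members lay below it. These 2 comparisons rest on the same 3 vehicle controls, so their values stand side by side and neither is separate support for the other.

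A gene was tested where its mean over the samples compared was at least 10. Cldn11 and the connexins Gja4, Gja5 and Gjb6, genes known from nerve sheath, vessel, heart and skin, did not reach it in any comparison, with no value above 17.6 in any sample. Cldn19, which ranged over 1.16 to 59.4, was not tested for the inhibitor in controls, and Cldn9, over 0 to 66.8, was tested only in the 3 pairs of groups that include control + A83-01. At an adjusted p under 0.05 with the same fold rule, control + A83-01 had 2 members higher (3.64% of all genes) and 4 lower (3.7%), and Smad2/3 cKO had 3 higher (9.16%) and 9 lower (9.17%). Groups that did not overlap in any sample were counted too. In control + A83-01 against control + vehicle 3 members lay wholly higher (10.3% of all genes) and 12 wholly lower (11.5%), and in Smad2/3 cKO against control + vehicle 3 lay wholly higher (14.8%) and 12 wholly lower (16.0%).

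**Figure D1:**
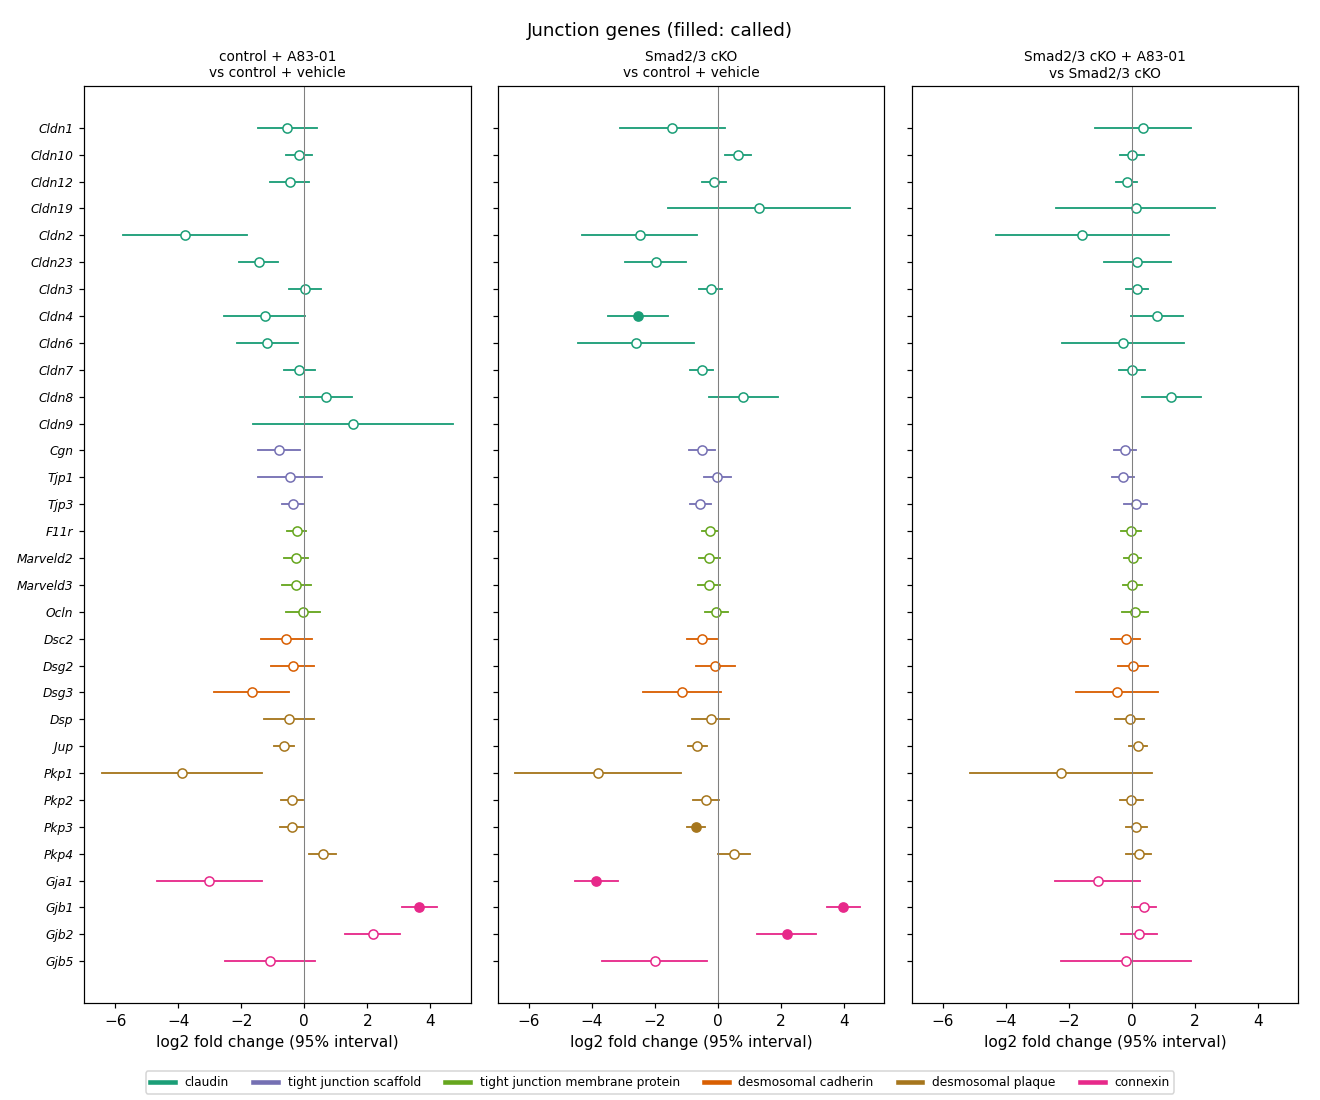
Log2 fold changes of junction genes, on the log2(value + 1) scale, with 95% intervals from limma, in 3 comparisons that share 1 x axis. Colours mark the gene groups and filled points the genes called. Gjb1 is filled at 3.64 and 3.98 in the first and second panel, no tight junction scaffold is filled, and in the third panel, A83-01 in Smad2/3 cKO, no point is filled.

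The promoters of the connexin and claudin genes called in Smad2/3 cKO are shown because these genes carry the result and moved in both directions. RefSeq's table on GRCm38.p6 held windows for 26 of the 40 members, and Pkp3 has no entry in it. Each line gives the 250 bases before the start, 5′ to 3′ on the gene's strand. The capitals mark GTCTG (a SMAD element), CAGGTG (an E2 box) and TGANTCA (an AP-1 site), searched on both strands. TGANTCA reads the same on both strands and was counted once per position, and the 3 motifs share no overlap in these windows. Gjb1 has 4 starts in the table and the window before the most upstream one is printed. The windows lie at chrX:101376126-101376375, plus strand for Gjb1, at chr14:57104703-57104952, minus strand for Gjb2, at chr10:56377050-56377299, plus strand for Gja1, and at chr5:134946935-134947184, minus strand for Cldn4.
Gjb1: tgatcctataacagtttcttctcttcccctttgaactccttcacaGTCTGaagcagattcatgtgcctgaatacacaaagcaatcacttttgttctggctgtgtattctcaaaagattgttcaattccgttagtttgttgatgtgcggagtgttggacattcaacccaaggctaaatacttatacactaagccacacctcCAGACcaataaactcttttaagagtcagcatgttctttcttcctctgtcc
Gjb2: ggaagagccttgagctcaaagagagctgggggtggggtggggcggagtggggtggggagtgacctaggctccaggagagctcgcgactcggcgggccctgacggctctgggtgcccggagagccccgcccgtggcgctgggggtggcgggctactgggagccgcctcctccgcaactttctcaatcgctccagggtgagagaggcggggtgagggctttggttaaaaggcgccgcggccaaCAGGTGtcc
Gja1: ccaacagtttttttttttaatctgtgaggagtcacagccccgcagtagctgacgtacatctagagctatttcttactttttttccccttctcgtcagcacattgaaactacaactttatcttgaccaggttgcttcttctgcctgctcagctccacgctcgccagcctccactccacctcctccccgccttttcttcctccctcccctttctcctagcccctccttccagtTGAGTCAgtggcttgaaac
Cldn4: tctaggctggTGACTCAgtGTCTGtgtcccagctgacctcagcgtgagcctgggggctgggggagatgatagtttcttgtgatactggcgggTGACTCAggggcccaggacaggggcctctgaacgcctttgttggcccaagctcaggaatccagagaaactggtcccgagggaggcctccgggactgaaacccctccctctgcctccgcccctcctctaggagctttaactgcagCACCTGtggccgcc

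The printed Gjb1 window held 2 matches to GTCTG, and of the other 3 Gjb1 windows 2 held it and 1 held CAGGTG. The Gjb2 window held 1 CAGGTG. The Gja1 window held 1 TGANTCA, and the Cldn4 window held 2 TGANTCA, 1 GTCTG and 1 CAGGTG. Of the 32851 windows of this length in the table, 42.2% held GTCTG, 17.2% held CAGGTG and 6.75% held TGANTCA, with 0.338% holding it 2 or more times. Of the 38 windows of members, 17 held GTCTG, 10 held CAGGTG and 3 held TGANTCA. Counted by gene, 11 of the 26 members with a window held GTCTG, 9 held CAGGTG and 3 held TGANTCA in at least 1 of their windows. The count by gene is not on the footing of the shares of all windows, because a gene can have several. A match is a description of these letters only.

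Gjb1, a connexin of liver and glands, and Gjb2, a connexin of many epithelia, were lowest in the vehicle controls. Gjb1 (ENSMUSG00000047797, chrX:101376378-101385629, plus strand, GRCm38) had values of 281, 196 and 169.9 in the vehicle controls and 2626, 1903, 2988 and 3286 in controls given A83-01. Gjb1 stood at 3964, 2623, 2763 and 4300.3 after the deletion and 4517, 4205, 3863 and 4910.2 with deletion and inhibitor. All 12 samples with inhibitor, deletion or both lay above the highest control + vehicle sample, with no overlap. The means were 216 ± 58.0 (SD, n = 3), 2701 ± 596 (SD, n = 4), 3412 ± 844 (SD, n = 4) and 4374 ± 446 (SD, n = 4) in that order of groups. The log2 fold change was 3.64 ± 0.25 (SE) for the inhibitor, with a 95% interval of 3.08 to 4.20 and an adjusted p of 0.000145, and 3.98 ± 0.24 for the deletion, with an interval of 3.44 to 4.51 and an adjusted p of 5.99e-05 (limma). Gjb1 was called in both comparisons in each of the 7 fits that left out 1 library.

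Gjb2 (ENSMUSG00000046352, chr14:57098600-57104702, minus strand) had values of 1670.5, 1577 and 5127 in the vehicle controls and 9950.4, 8787, 11821 and 12594 in controls given A83-01. Gjb2 stood at 6532, 11820, 12670 and 13643 after the deletion and 17314, 9327, 11602 and 13121 with deletion and inhibitor. Control + vehicle replicate 3 was far above the other vehicle samples, yet stayed below every sample of the other groups, the nearest being Smad2/3 cKO replicate 1. The log2 fold change was 2.16 ± 0.38 for the inhibitor (adjusted p = 0.0123, not called) and 2.17 ± 0.42 for the deletion (adjusted p = 0.0081, called, limma). With the samples of the control groups paired by replicate number, which leaves control + A83-01 replicate 4 without a partner, the inhibitor's log2 fold change was 2.09 with an adjusted p of 0.00584, and Gjb2 was called. Without control + vehicle replicate 3 the estimates were 2.72 and 2.73, called in both comparisons. Of the 7 fits of the deletion that left out 1 library, 2 called Gjb2, those without control + vehicle replicate 3 or Smad2/3 cKO replicate 1, and its highest adjusted p among them was 0.0402.

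Gja1, the most widely expressed connexin of the body, went the other way. Gja1 (ENSMUSG00000050953, chr10:56377330-56402513, plus strand) had values of 625, 624 and 782 in the vehicle controls and 143, 236, 75.2 and 17.6 in controls given A83-01. Gja1 stood at 45.8, 28.3, 57.8 and 57.2 after the deletion and 12.7, 10.4, 18.3 and 77.2 with deletion and inhibitor. Every vehicle-treated control sample was above every other sample, and control + A83-01 was spread over a wide range with its replicate 4 at the level of the cKO samples. The log2 fold change was -3.86 ± 0.31 for the deletion (95% interval -4.55 to -3.16, adjusted p = 0.000193, limma), called in each of the 7 fits that left out 1 library. The inhibitor gave -3.01 ± 0.74 (adjusted p = 0.0424), which missed the call. Gja1 is also a gene of stroma and muscle. The 3 smooth muscle markers in the table, of 4 on the list, summed to 73.9 to 207 in the vehicle controls and 28.5 to 55.1, 35.4 to 60.9 and 30.4 to 86.5 in the other groups. Within that list Acta2 was at 53.6 to 176 in the vehicle controls and 4.74 to 21.0 after the deletion (called lower), and Tagln at 18.8 to 31.4 and 22.7 to 42.6 (estimate 0.44, adjusted p = 0.512). The 6 stromal markers of 7 summed to 32.6 to 192 in the vehicle controls and 4.79 to 54.7, 2.96 to 43.9 and 3.99 to 129 in the others, with Vim at most 36.5 in any sample, and Des of the muscle list was at most 9.24. Their part in the Gja1 difference was not tested.

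Gjb5, a connexin best known from skin and other stratified epithelia, had low values and negative estimates. Gjb5 ranged over 26.5 to 58.4 in the vehicle controls, 7.12 to 39.8 in controls given A83-01, 2.91 to 32.2 after the deletion and 1.11 to 20.8 with both. Its limma estimates were -1.08 ± 0.63 for the inhibitor (adjusted p = 0.367) and -2.01 ± 0.74 for the deletion (adjusted p = 0.0902), not called. Gja4, the gap junction gene of vessel walls, was at most 16.0 in any sample. Gjb6, the neighbour of Gjb2 on chromosome 14, was at most 3.48.

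**Figure D2:**
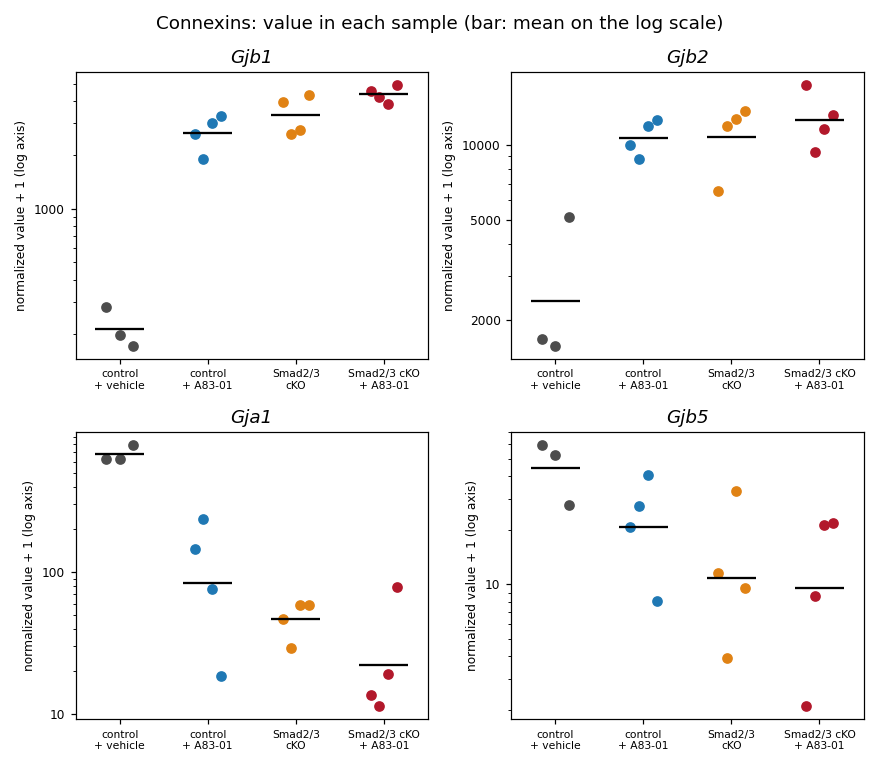
Normalized value plus 1 of 4 connexins in each of the 15 samples, on log axes that differ between panels, with points for samples and bars for the group mean on the log scale. Every control + vehicle point lies below all others for Gjb1 and Gjb2 and above all others for Gja1, and the Gjb5 points of control + vehicle overlap with those of control + A83-01 and of Smad2/3 cKO.

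Set against transcript length, the make-up of the 7 connexins reported here had different means in the vehicle controls and the rest. Their summed level per kilobase of transcript was 1543 ± 836 (SD, n = 3) in the vehicle controls, 6241 ± 1059 (n = 4) in controls given A83-01, 6821 ± 1306 (n = 4) after the deletion and 8117 ± 1547 (n = 4) with both. Of that sum Gjb1 made up 10.8% ± 5.96, 27.1% ± 1.92, 32.5% ± 10.7 and 34.6% ± 5.11 in the same order. Gja1 made up 15.6% ± 5.12 in the vehicle controls and 0.220% ± 0.0623 after the deletion. Gjb2 had the largest share of the 7 in each of the 15 samples, with a mean of 70.8% ± 12.4 in the vehicle controls and 67.1% ± 10.8 after the deletion. A share moves when any of the other genes moves, and these shares were not tested. The sum leaves out the connexins that are not reported here. The summed levels, the shares and the rank of Gjb2 hold for these 7 genes only. They would differ with all 10 matched connexins.

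**Figure D3:**
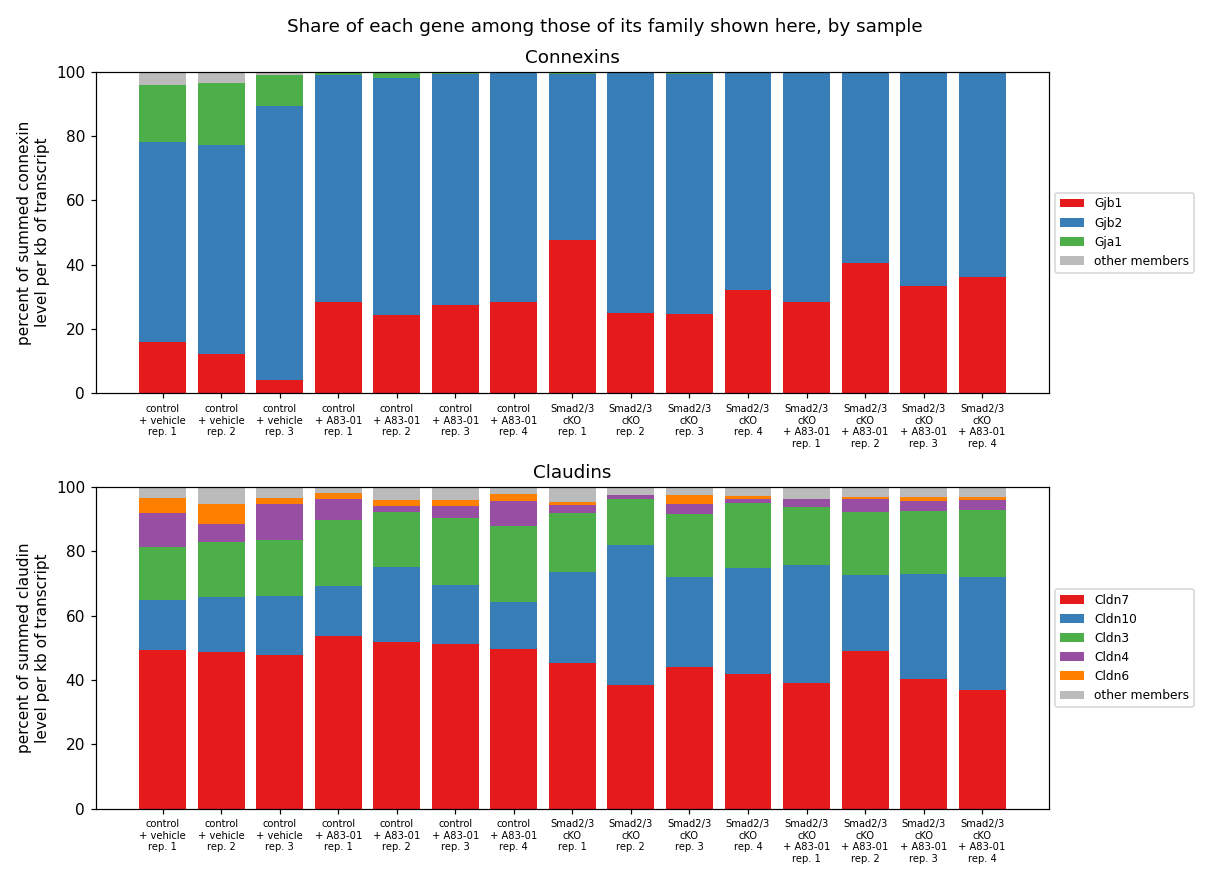
Share of each gene in the summed level of the 7 connexins (upper) and 13 claudins (lower) reported here, in percent of the level per kilobase of transcript, 1 bar per sample. Green (Gja1) is visible in the connexin bars of the 3 control + vehicle samples, at a mean of 15.6% ± 5.12, and red and blue (Gjb1 and Gjb2) fill nearly all of the other 12 bars. In the claudin bars Cldn10 takes 16.9% ± 1.52 (SD, n = 3) in control + vehicle and 33.2% ± 7.33 (n = 4) in Smad2/3 cKO.

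Among the claudins, Cldn4 was called lower after the deletion and was the 1 claudin called in these comparisons. Cldn4, a sealing claudin of many simple epithelia (ENSMUSG00000047501, chr5:134945119-134946934, minus strand), was at 5810.4, 2573 and 5469.7 in the vehicle controls and 3655, 687, 1347 and 3183 in controls given A83-01. Cldn4 stood at 953, 472, 1396 and 484 after the deletion and 865, 1993, 1331 and 1224 with deletion and inhibitor. All Smad2/3 cKO samples lay below the lowest vehicle control, while control + A83-01 overlapped with it. The log2 fold change was -2.55 ± 0.42 for the deletion (95% interval -3.50 to -1.59, adjusted p = 0.00455, limma, called) and -1.26 ± 0.57 for the inhibitor (-2.54 to 0.02, adjusted p = 0.234). The deletion's call held in the fits without control + vehicle replicate 2, Smad2/3 cKO replicate 1 or Smad2/3 cKO replicate 3, and was lost without control + vehicle replicate 1, control + vehicle replicate 3, Smad2/3 cKO replicate 2 or Smad2/3 cKO replicate 4, with an adjusted p up to 0.026. Cldn3 lies next to Cldn4 on chromosome 5, in opposite orientation, and was not called. Cldn3 was at 6529, 5494 and 5774 in the vehicle controls and 8449, 4477, 5132 and 6853 in controls given A83-01, with 0.03 (-0.48 to 0.54) for the inhibitor and -0.24 (-0.60 to 0.13) for the deletion. Cldn3 stood at 4911, 4093, 6386 and 4936 after the deletion and 4581, 6509, 5856 and 5795 with deletion and inhibitor.

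Cldn23 and Cldn2 had lower values without a call. Cldn23 was at 499, 524 and 599.9 in the vehicle controls and 269.8, 247, 151 and 152 in controls given A83-01, and at 59.3, 247, 184 and 129 after the deletion and 195, 71.9, 202 and 196 with deletion and inhibitor. No sample of the other 3 groups reached the lowest vehicle control, and the estimates were -1.45 ± 0.28 (adjusted p = 0.0167) for the inhibitor and -1.98 ± 0.43 (adjusted p = 0.0135) for the deletion. Cldn2, which forms cation pores in leaky epithelia, was at 321, 267 and 248 in the vehicle controls and 45.6, 60.1, 14.5 and 2.70 in controls given A83-01, and at 287, 30.6, 37.1 and 16.8 after the deletion and 3.84, 201, 13.9 and 4.50 with deletion and inhibitor. A single sample of each cKO group, replicate 1 of Smad2/3 cKO and replicate 2 of Smad2/3 cKO + A83-01, was near the vehicle controls and the other cKO samples were far lower. The estimates were -3.79 ± 0.87 (adjusted p = 0.0338) and -2.48 ± 0.81 (adjusted p = 0.0621), and without Smad2/3 cKO replicate 1 the second was -3.32 with an adjusted p of 0.00202, which is called.

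Cldn10, a claudin of ion transport in kidney and glands, had a positive estimate after the deletion. It was at 10115, 9370.1 and 10388 in the vehicle controls and 10602, 10427, 7578 and 7237 in controls given A83-01, and at 12818, 21290, 15369 and 13564 after the deletion and 15555, 13214, 16695 and 16456 with deletion and inhibitor. Every cKO sample of either treatment lay above every control sample. The log2 fold change of the deletion was 0.63 ± 0.19 against control + vehicle (95% interval 0.21 to 1.05, adjusted p = 0.0436), and Smad2/3 cKO + A83-01 against control + A83-01 gave 0.80 ± 0.17 (adjusted p = 0.122), neither called. For the inhibitor in controls the estimate was -0.17 (-0.59 to 0.25). Per kilobase of transcript Cldn7 was the most abundant claudin in every group, at 13519, 12357, 9482 and 9641, followed by Cldn3 and Cldn10 at 4712 and 4679 in the vehicle controls and 4036 and 7406 in Smad2/3 cKO. The normalized values of Cldn7, a claudin of simple epithelia, were 20459, 16708 and 16976 in the vehicle controls and 23107, 14394, 13235 and 15249 in controls given A83-01. Cldn7 stood at 12934, 11746, 15077 and 10876 after the deletion and 10413, 17340, 12878 and 10854 with deletion and inhibitor. Its estimates were -0.16 (adjusted p = 0.736) and -0.52 (adjusted p = 0.0511).

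The other claudins were not called in these comparisons and, apart from Cldn12, were low or uneven. Cldn6, a claudin of early epithelia, ranged over 750.0 to 2648 in the vehicle controls, 593 to 1077 in controls given A83-01, 69.0 to 1119 after the deletion and 50.4 to 496 with both, with a limma estimate of -2.59 ± 0.81 for the deletion (adjusted p = 0.0552). Cldn1, a barrier claudin of skin, ranged over 379.5 to 1439 in the vehicle controls and 112 to 928 after the deletion, and its estimates were -0.54 (-1.48 to 0.40) and -1.45 (-3.12 to 0.21). Cldn8, a claudin of the distal kidney, was at 92.3, 95.6 and 64.1 in the vehicle controls and 94.3, 101, 188 and 176 in controls given A83-01, and at 306, 64.6, 165 and 136 after the deletion and 396.5, 283, 488 and 269 with deletion and inhibitor. For Cldn8 both control + A83-01 and Smad2/3 cKO overlapped with the vehicle controls, while the 4 samples with deletion and inhibitor lay above both control groups. The estimates against the vehicle controls were 0.68 ± 0.36 and 0.80 ± 0.48 (SE). Cldn12, which lacks the usual scaffold-binding tail of a claudin, ranged over 1332 to 1771 in the vehicle controls and 1199 to 1718 after the deletion, with -0.47 (-1.08 to 0.15) and -0.14 (-0.52 to 0.24).

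**Figure D4:**
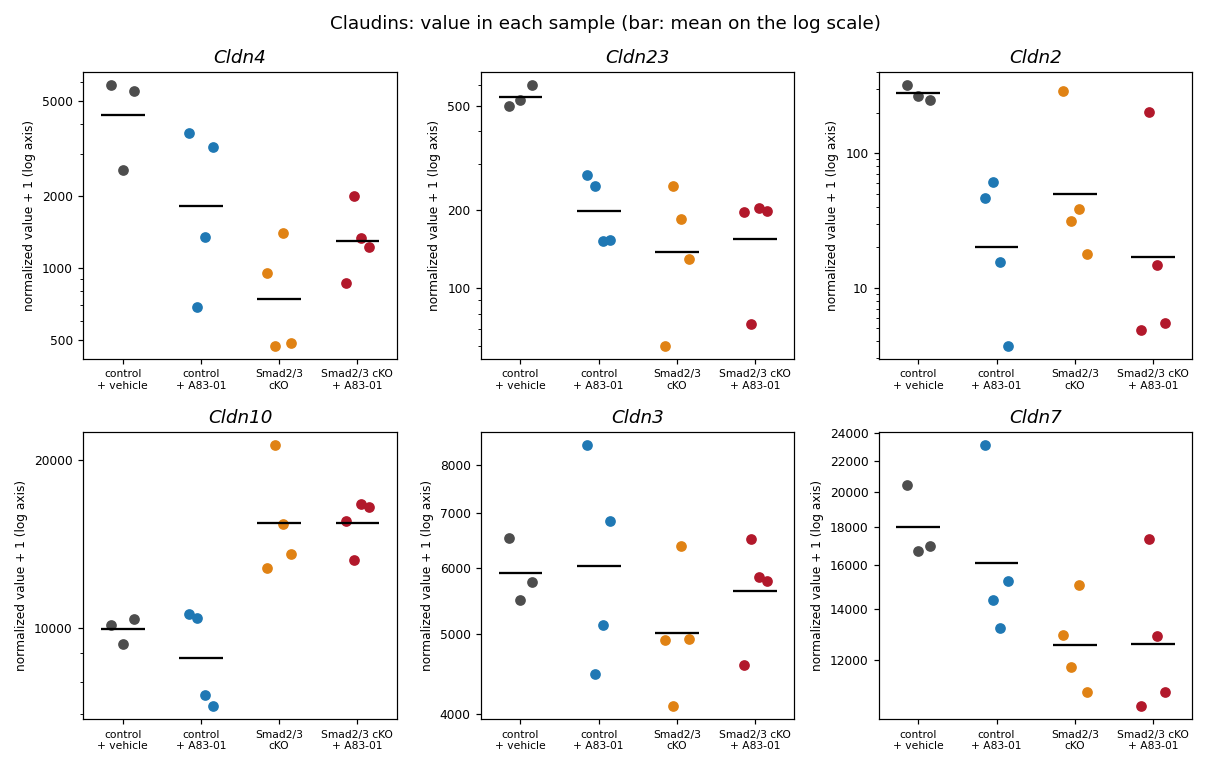
Normalized value plus 1 of 6 claudins in each of the 15 samples, on log axes that differ between panels, with points for samples and bars for the group mean on the log scale. The 4 Smad2/3 cKO points of Cldn4 lie below all 3 vehicle controls, the Cldn23 vehicle points lie above all others, 1 point of each cKO group stands high for Cldn2, and both cKO groups lie above both control groups for Cldn10.

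The tight junction scaffolds and the membrane proteins beside the claudins were not called in either comparison. The limma estimates of the scaffolds given here lay between -0.81 and -0.02, and the 4 membrane proteins had medians of -0.25 for the inhibitor and -0.27 for the deletion. Tjp3, a zonula occludens scaffold, stood at -0.37 (adjusted p = 0.185) and -0.57 (adjusted p = 0.028), with 2905 to 3148 in the vehicle controls and 1613 to 2344 after the deletion, which do not overlap. Tjp1, the first described zonula occludens scaffold, was at 1169, 1673 and 1759 in the vehicle controls and 513, 1899, 1877 and 801 in controls given A83-01, and at 1421, 1253, 1507 and 1822 after the deletion and 1269.5, 975, 1264 and 1448 with deletion and inhibitor. Its groups overlapped fully and the estimates were -0.46 (-1.47 to 0.56) and -0.02 (-0.44 to 0.40). The lowest Tjp1 samples, control + A83-01 replicates 1 and 4, are the ones in which long transcripts were low throughout, and the part of that in the estimate was not tested. Cgn, cingulin, was at 1815, 2989 and 2125 in the vehicle controls and 763, 1584, 1655 and 1383 in controls given A83-01. Cgn stood at 1501, 1899, 1494 and 1496 after the deletion and 1537, 1039.5, 1566 and 1415 with deletion and inhibitor. Its vehicle controls lay above all control + A83-01 samples, and Cgn had estimates of -0.81 (adjusted p = 0.14) and -0.51 (adjusted p = 0.0872). The Cgn transcript has 5016 bases, and its lowest value was that of control + A83-01 replicate 1, where long transcripts were low. With 1 sample left out the inhibitor's estimate ran from -0.97 to -0.56, and the part of transcript length in it was not tested.

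Occludin, F11r, Marveld2 and Marveld3 had estimates between -0.28 and -0.04 on the log2 scale. Ocln was at 1531, 2004 and 1899 in the vehicle controls and 1279, 2428, 2022 and 1513 in controls given A83-01, and at 1547, 1505, 1797 and 2107 after the deletion and 1911, 1386, 1847 and 2443 with deletion and inhibitor. Its groups overlapped, with estimates of -0.04 (-0.57 to 0.50) and -0.06 (-0.43 to 0.30). F11r, an immunoglobulin-type adhesion molecule, was at 5911, 5943 and 5457 in the vehicle controls and 5332, 4687, 4422 and 5093 in controls given A83-01, and at 4832, 4785, 5357 and 4381 after the deletion and 3731, 5555, 5183 and 4835 with deletion and inhibitor. The vehicle controls lay just above both control + A83-01 and Smad2/3 cKO, and the estimates were -0.24 (-0.56 to 0.07) and -0.26 (-0.52 to 0.01). Marveld2, which seals the corners where 3 cells meet, ranged over 832 to 971 in the vehicle controls and 682 to 877 after the deletion, and Marveld3, its relative, over 673 to 905 and 609 to 687. Their 4 estimates lay between -0.28 and -0.25.

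In the desmosome, Pkp3 was called lower after the deletion, Jup had lower values in every treated or deleted sample, and Pkp1 had its highest values in the vehicle controls. Pkp3, a plakophilin of most epithelia (ENSMUSG00000054065, chr7:141078218-141090510, plus strand), was at 2280.1, 2290.0 and 2135 in the vehicle controls and 1816, 1378, 1693 and 1988 in controls given A83-01. Pkp3 stood at 1534, 1447, 1384 and 1184 after the deletion and 1211, 1659, 1799 and 1486 with deletion and inhibitor. All 12 samples of the other groups lay below the 3 vehicle controls, and the log2 fold change was -0.69 ± 0.13 for the deletion (95% interval -0.99 to -0.40, adjusted p = 0.00712, limma, called) and -0.39 ± 0.16 for the inhibitor (adjusted p = 0.199). The call for the deletion was lost in each of the 7 fits that left out 1 library, where the estimate stayed between -0.74 and -0.62 and the adjusted p between 0.0124 and 0.0319. Jup, plakoglobin, which desmosomes and adherens junctions share, was at 9432, 8887 and 8498 in the vehicle controls and 6135, 6116, 5190.2 and 5324 in controls given A83-01, and at 5314, 6544, 6110.3 and 4881 after the deletion and 6415, 7417, 6669 and 5749.6 with deletion and inhibitor. No Jup value of the other groups reached 8498, the lowest vehicle control. Its estimates were -0.65 ± 0.14 (adjusted p = 0.0274) and -0.65 ± 0.14 (adjusted p = 0.0122), not called.

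Pkp1, the plakophilin of stratified epithelia, was listed at 163, 160.0 and 152 in the vehicle controls and 0, 12.4, 38.8 and 24.6 in controls given A83-01, and at 10.9, 0, 57.8 and 23.8 after the deletion and 0, 3.66, 6.16 and 0 with deletion and inhibitor. The vehicle controls lay close together and all other samples were far lower, 4 of them listed at 0. Its estimates were -3.88 ± 1.12 (adjusted p = 0.0721) and -3.80 ± 1.17 (adjusted p = 0.0506), and they depended on the pseudocount, at -4.75 and -4.67 with 0.1 and -2.76 and -2.68 with 10. Without the sample listed at 0 they were -2.74 (control + A83-01 replicate 1) and -2.62 (Smad2/3 cKO replicate 2), not called. The 8 markers of stratified squamous epithelium on the list, of which Krt5 was at most 30.6 and Krt14 at most 21.1 in any sample, summed to 9252 to 14022, 15358 to 35805, 7268 to 24445 and 10644 to 24456 by group, most of it Sprr1a and Krt4. Within the list the deletion called Trp63 higher (0 to 4.91 in the vehicle controls, 25.6 to 109 in Smad2/3 cKO, adjusted p = 0.00714), and Krt6a was at 65.1 to 209 and 9.50 to 69.2 (-2.61, adjusted p = 0.0316, not called). The part of these markers in the Pkp1 difference was not tested. Pkp4, a plakophilin also found at adherens junctions, had positive estimates of 0.58 (adjusted p = 0.111) and 0.51 (adjusted p = 0.149), and ranged over 1287 to 2107 in the vehicle controls and 1625 to 2746 after the deletion. Pkp2, the plakophilin of simple epithelia and heart, ranged over 781 to 889.9 and 525 to 809, with -0.39 (-0.74 to -0.05) and -0.38 (-0.79 to 0.03).

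Dsp and the desmosomal cadherins were not called. Dsp, desmoplakin, was at 769.7, 936 and 1518 in the vehicle controls and 446, 636, 1199 and 859 in controls given A83-01, and at 721, 729.8, 990.2 and 1136 after the deletion and 769, 637, 967 and 1022 with deletion and inhibitor. Its groups overlapped and the estimates were -0.49 (-1.29 to 0.32) and -0.23 (-0.82 to 0.35). Dsg2, the desmoglein of simple epithelia, was at 1118, 1375 and 2263 in the vehicle controls and 741, 1371, 1392 and 1341 in controls given A83-01, and at 1073, 1216, 1817 and 1731 after the deletion and 1379, 1121, 1898 and 1568 with deletion and inhibitor. Control + A83-01 replicate 1 was the lowest of all samples for both Dsp and Dsg2, and it is the sample with the lowest level of long transcripts. The estimates of Dsg2 were -0.37 (-1.05 to 0.31) and -0.09 (-0.70 to 0.52), and those of Dsc2, its desmocollin partner, were -0.58 (-1.39 to 0.23) and -0.51 (-0.98 to -0.03), with Dsc2 at 1257 to 1909 in the vehicle controls and 899 to 1500.2 after the deletion. Dsg3, a desmoglein of stratified epithelium, was low, at 34.4 to 95.7 in the vehicle controls, 13.4 to 31.5 in controls given A83-01 and 18.4 to 56.7 after the deletion, with -1.67 (adjusted p = 0.0972) and -1.15 (adjusted p = 0.174).

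**Figure D5:**
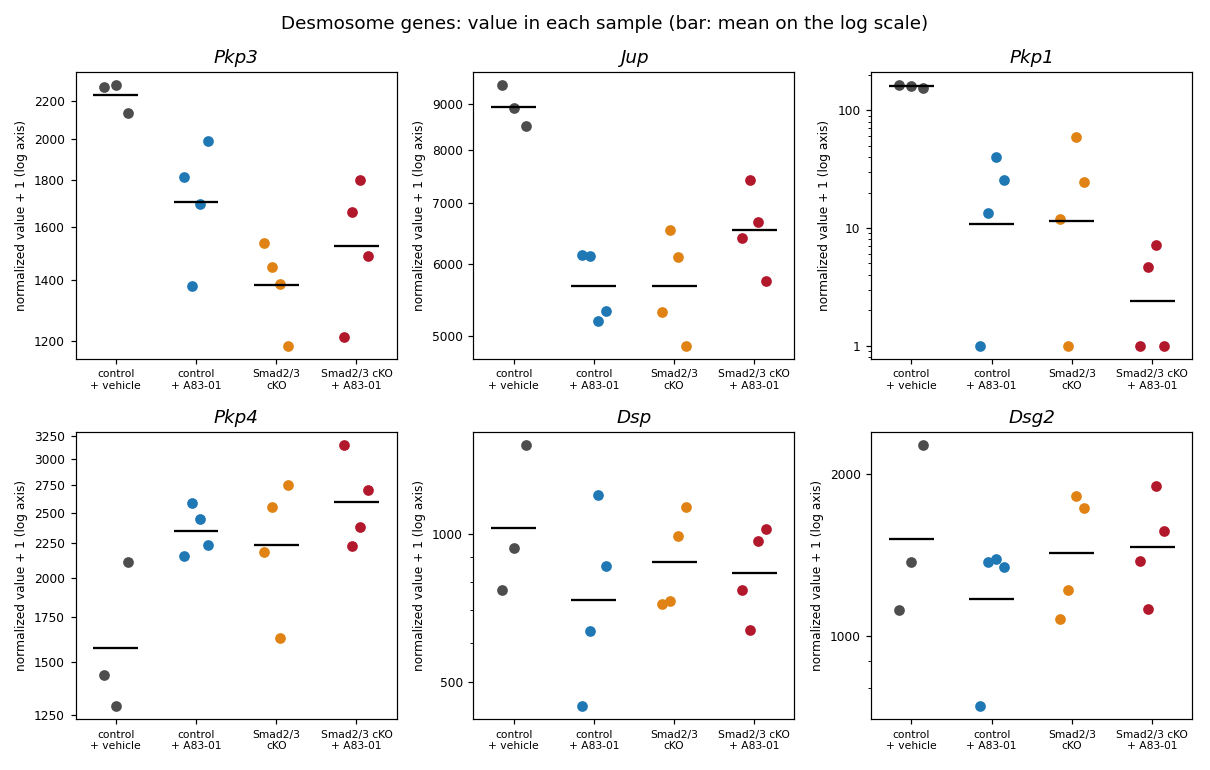
Normalized value plus 1 of 5 plaque genes and 1 desmosomal cadherin in each of the 15 samples, on log axes that differ between panels, with points for samples and bars for the group mean on the log scale. The vehicle controls lie above all other samples for Pkp3, Jup and Pkp1, with 4 Pkp1 points at 1, which stands for a value listed at 0. For Dsp and Dsg2 the groups overlap.

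The partners of these genes in adherens junctions, tight junctions and desmosomes were taken from lists made with earlier results of these data known. Of 50 tested, limma called 0 higher and 4 lower for the inhibitor, against 1.19% and 1.08% of all genes, and 1 higher and 8 lower for the deletion, against 4.08% and 3.3%. Their medians were -0.40 and -0.41, beside -0.02 and 0.00 for all genes. N-cadherin (Cdh2) was called lower in both, at -5.11 (adjusted p = 0.00618) and -6.33 (adjusted p = 0.000877), where its values are so near 0 that the fold depends on the pseudocount. Nectin3 and Jam2, adhesion molecules of adherens and tight junctions, stood at -2.65 and -2.88 for the inhibitor and -3.61 and -3.16 for the deletion, and Arhgef2, an exchange factor held at tight junctions, at -1.15 and -1.09, all called. The deletion also called Mall (-2.82), Amotl2 (-1.17), Cgnl1 (-0.96) and the α-catenin gene Ctnna1 (-0.68) lower, and Cxadr, an adhesion molecule beside tight junctions, higher (0.88). E-cadherin (Cdh1) stood at -0.51 (adjusted p = 0.479) and -0.37 (adjusted p = 0.324), not called. By list, 15 of the 16 adherens junction genes tested lay below 0 for the inhibitor and 16 of 16 for the deletion, with medians of -0.73 and -0.69, and the 27 tested scaffold, polarity and membrane partners of tight junctions had medians of -0.37 and -0.22. The 6 companions of the desmosomal plaque had medians of 0.15 and -0.07, with 3 of 6 above 0 in each comparison, and the 1 tested gene of the pannexin and gap junction list stood at 0.33 and 0.16.

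In organoids without SMAD2/3 the inhibitor had no called effect on junction genes. Of 34 members tested in Smad2/3 cKO + A83-01 against Smad2/3 cKO, limma called 0, as of all genes (0.0%), with 1 member at an unadjusted p under 0.05, Cldn8 at 1.26 (0.32 to 2.19), against 4.26% of all genes. No member had groups free of overlap, against 2.9% of all genes. Gjb1 stood at 0.39 (-0.01 to 0.78), Gjb2 at 0.22 (-0.35 to 0.79), Gja1 at -1.08 (-2.43 to 0.27) and Cldn4 at 0.80 (-0.02 to 1.62).

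The difference between the genotypes in the inhibitor's effect was tested in a fit of all 15 samples, and limma called 1 of 34 members, Gjb1, against 0.551% of all genes in either direction. Gjb1's inhibitor effect in Smad2/3 cKO minus that in controls was -3.26 on the log2 scale (SE 0.31, 95% interval -3.91 to -2.61, adjusted p = 4.81e-05), and it was called in each of the 15 fits that left out 1 library. Gjb2 gave -1.94 ± 0.49 (adjusted p = 0.0666), not called, and -2.50 (adjusted p = 0.00286) and called without control + vehicle replicate 3. Jup gave 0.86 ± 0.18 (adjusted p = 0.0231) and Cldn4 2.06 ± 0.73 (adjusted p = 0.194), both not called.

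Deleted organoids and inhibitor-treated controls were also compared directly. Smad2/3 cKO against control + A83-01 called 0 of 35 members with limma (0.0% of all genes), with 4 members at an unadjusted p under 0.05 (6.36% of all genes), and 1 member, Cldn10, had groups free of overlap (3.45% of all genes), at 0.81 ± 0.20 (adjusted p = 0.596). Gjb1 stood at 0.33 (-0.16 to 0.82), Gjb2 at 0.01 (-0.52 to 0.54), Jup at 0.00 (-0.31 to 0.31) and Cldn4 at -1.29 (-2.49 to -0.08). A p that misses the threshold does not show that these groups are alike. With the inhibitor in both, Smad2/3 cKO + A83-01 against control + A83-01 called 0 of 35 members (0.0232% of all genes), with 7 at an unadjusted p under 0.05 (9.52% of all genes). In that comparison 5 of 35 members had groups free of overlap (6.12% of all genes). Cldn10 at 0.80, Cldn8 at 1.38 and Gjb1 at 0.72 lay higher in Smad2/3 cKO + A83-01, and Cldn6 at -1.70 lower, with adjusted p from 0.122 to 0.408. In the order of group means for Gjb1, control + A83-01 and Smad2/3 cKO overlapped, as did Smad2/3 cKO and Smad2/3 cKO + A83-01.

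How far the 5 calls of the deletion rest on single libraries differed by gene. The count of members called was 2 without control + vehicle replicate 1, 3 without control + vehicle replicate 2, 3 without control + vehicle replicate 3, 3 without Smad2/3 cKO replicate 2, the sample with Adgre1, and 2 without Smad2/3 cKO replicate 4. It was 6 without Smad2/3 cKO replicate 1 and 4 without Smad2/3 cKO replicate 3. Gja1 and Gjb1 were called in all 7 of these fits. In control + A83-01 against control + vehicle the count was 2, with Gjb2 added, without control + vehicle replicate 3 and 1 in the other 6 fits.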

How the data were processed

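RNA-seq of 15 endometrial epithelial organoid samples was analysed. The authors quantified transcripts with Salmon 1.4.0 and normalized with DESeq2 1.32.0, and the submitters' processing notes name GRCm39. The deposited signal values behave as estimated counts divided by 1 size factor per sample, and whole reads could not be recovered from them, so the raw depth is unknown. Whether a length correction entered them is not given in the sources used here. The library kit was a low-input SMART-Seq v4 kit, which does not mark strand, so overlapping genes on opposite strands cannot be separated.

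Genes with a mean of at least 10 over the samples compared were tested with limma 3.58.1 in R 4.3.3 (lmFit and eBayes with trend) on log2(value + 1), so fold changes of low genes are understated. P-values were adjusted over all genes tested (Benjamini-Hochberg), and a gene was called at an adjusted p below 0.01 and a change of 1.4-fold or more in either direction. P-values set the difference between group means against the spread between the samples of a group, moderated over all genes. These fits take all samples as independent, although some may share an animal. Each of 5 pairs of groups was fitted alone, and the genotype difference in the inhibitor effect was fitted over all 15 samples. The procedure was also run on simulated data with values drawn independently for every sample, so that run does not cover samples that share an animal. Samples were grouped by the labels, and the same replicate number deviated together in both control groups (r of 0.423, 0.409 and 0.354 over genes), so a fit with the replicate number as a block was made as an alternative. Control + A83-01 replicate 4 and control + vehicle replicate 3, of different numbers, reached a similar r of 0.347. The other control pairs of different numbers lay between -0.359 and -0.0365. What these correlations come from was not tested.

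The members, the companion genes and the marker lists were chosen with earlier results of these data known. Values in every sample were given for called members, for Cldn3, Cldn4, Cldn7, Ocln, Tjp1, Cgn, F11r, Dsp, Jup and Pkp3, and for the highest member of each family. Members with an adjusted p below 0.05 were named, except that values of 4 of the 40 members are not reported here (all 40 enter the counts), and the sample values of Cldn8 and Pkp1 were added after their values were seen. Gene positions and transcript lengths came from GENCODE M21 on GRCm38, and promoter windows from RefSeq on GRCm38.p6. Alternatives were other pseudocounts (0.1 and 10), no filter, a minimum mean of 50, quantile normalization, equal totals, no trend, all groups in a single fit, an adjusted p below 0.05, the replicate block and leaving out each sample.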

Additional observations from a re-analysis of the deposited data

Results flagged for a closer look

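In 5 of 54 groups of 4 samples checked, a single sample stood far from the rest of its group for a named gene. The rule flags about 1 in 20 groups of normally distributed values. It was applied to values without logs, and the genes share the same samples, so the count cannot be compared with chance. Cldn2 was at 287 in Smad2/3 cKO replicate 1, where the other samples of that group were between 16.8 and 37.1, and at 201 in Smad2/3 cKO + A83-01 replicate 2, where the others were between 3.84 and 13.9. Cldn23 was at 71.9 in Smad2/3 cKO + A83-01 replicate 2 against 195 to 202 in the rest. Gja1 was at 77.2 in Smad2/3 cKO + A83-01 replicate 4 against 10.4 to 18.3 in the rest. Cgn, the cingulin gene, was at 1899 in Smad2/3 cKO replicate 2 against 1494 to 1501 in the rest, and that sample also held Adgre1 at 351.

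The A83-01 effect on Gjb1 differed between the genotypes by -3.26 on the log2 scale, cKO minus control, in limma's test of the difference itself.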

How the results depend on the processing

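Of 799 alternative values for 45 results, 736 kept their direction and their side of the threshold, 24 passed the threshold newly, 22 no longer passed it and 17 changed sign. Most of the 45 results were not called in the fits reported above, and a result that stayed uncalled counts among the 736. All 22 lost calls were those of Gjb2, Cldn4 and Pkp3 for the deletion. For the inhibitor in controls the number of junction genes called was 6 at an adjusted p below 0.05, 2 with quantile normalization (Jup added), 3 with all 4 groups in a single fit, and 1 to 2 with 1 sample left out. For the deletion it was 12 at an adjusted p below 0.05, 2 without the trend, 8 with all 4 groups, and 2 to 6 with 1 sample left out. For the genotype difference it was 2 at an adjusted p below 0.05, 2 with quantile normalization and 1 to 2 with 1 sample left out. With the replicate block the counts were 2 for the inhibitor in controls and 3 for the deletion (Cldn4, Gja1 and Gjb1). In controls the block pairs samples by replicate number, and whether these share an animal is not established. For the deletion the replicate numbers do not pair the samples, although replicate 1 of both groups also shares its description number, with correlations of 0.0774, 0.0767 and 0.0153, and in cKO with and without A83-01 they ran from -0.166 to 0.375, and not every sample correlated best with its own number in either comparison. Smad2/3 cKO replicate 2 and Smad2/3 cKO + A83-01 replicate 1, which share a description number (r of 0.355), are not paired by the block. The block changed no other count of calls.

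Changes of sign were those of small estimates. For the inhibitor, Cldn3 stood at -0.079 with quantile normalization, -0.080 with equal totals, -0.031 with the replicate block and -0.13 to 0.17 with 1 sample left out, and Ocln at 0.036 with the replicate block and -0.19 to 0.12 with 1 sample left out. For the deletion with 1 sample left out, Ocln ran from -0.18 to 0.015, Tjp1 from -0.21 to 0.089 and Dsp from -0.44 to 0.047.

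Over all genes the inhibitor called 155 higher and 140 lower, against 474 and 481 at an adjusted p below 0.05 and 397 and 258 with all 4 groups. Without control + vehicle replicate 1 the total was 53, without replicate 2 49 and without replicate 3 128, and it was 140 without control + A83-01 replicate 3 and 116 without replicate 4. The deletion called 536 and 434, against 1204 and 1206 at an adjusted p below 0.05, 257 and 195 without the trend and 145 and 66 with the block, and in total 280 without control + vehicle replicate 1, 288 without replicate 2, 524 without Smad2/3 cKO replicate 1 and 443 without replicate 4. The genotype difference called 13 and 59, against 70 and 138 at an adjusted p below 0.05 and 38 and 57 with a pseudocount of 10, and in total 39 without control + vehicle replicate 2, 46 without control + A83-01 replicate 4, 45 without Smad2/3 cKO replicate 4 and 44 without Smad2/3 cKO + A83-01 replicate 3. The causes of these shifts were not tested. The raw depth is unknown, so no counting interval could be given.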
